A study of Mus musculus with 24 samples.

Results

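TGF-beta signalling in gastrocnemius muscle was followed here through 8 genes: the ligands Tgfb1, Tgfb2 and Tgfb3, the receptors Tgfbr1, Tgfbr2 and Tgfbr3, and the target genes Skil and Smad7. They were taken by symbol from the 43346 genes of the count table. All 8 passed the filter on low counts, as did 17773 genes in all. C57BL6 mice aged 7 weeks received LLC1 cells, a Lewis lung carcinoma line that the labels call lung adenocarcinoma, or vehicle (PBS) under the skin, and the tumour cells grew for 3 weeks. The groups were female mice with vehicle, female mice with LLC1 cells, male mice with vehicle and male mice with LLC1 cells, with 6 mice in each. Mice of all groups were of 1 strain, and no transgene or other agent is given in the labels.

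TGF-beta ligands are secreted as latent dimers that are stored in the matrix and must be released before they bind. The active ligand brings the type II receptor, encoded by Tgfbr2, together with the type I receptor, encoded by Tgfbr1, whose kinase phosphorylates SMAD2 and SMAD3. These join SMAD4 and act on target genes in the nucleus, among them genes whose products limit the signal. In muscle the pathway is known for restraining myoblast differentiation and for driving fibro-adipogenic progenitors, the matrix-forming cells between the fibres, toward fibrosis. Related ligands such as myostatin and activin bind other type II receptors but use the same SMAD2 and SMAD3, and they limit muscle mass.

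With LLC1 tumours, the type I receptor gene Tgfbr1, the co-receptor gene Tgfbr3 and the inhibitor gene Smad7 rose in male muscle, and the ligand gene Tgfb2 fell. The same 4 genes passed the test when the effect was averaged over the sexes. Of all genes tested, 36.3% passed in males and 41.5% in the average. No member passed the test in females alone, where 9.92% of all genes did. Tgfbr1 lay higher in all 6 female LLC1 mice than in any female vehicle mouse. In females the LLC1 and vehicle groups did not overlap for 6.55% of all genes tested. The test of a difference in the LLC1 effect between the sexes passed for none of the 8 genes. Calls are an adjusted p under 0.05 in edgeR's quasi-likelihood test, adjusted over all genes tested.

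Total counts ran from 26.18 to 47.36 M (mega-counts) per library. The 10 muscle fibre markers summed to between 141800 and 225000 CPM (counts per mega-count, here on library sizes scaled by TMM factors) in every library. All libraries of a group carry the same lane in their description and each group has its own lane, so that effects of lane and of group cannot be told apart. LLC1 went with neutrophil markers: 10 of 10 rose in each sex, and their sum was 4.35 to 9.28 CPM in female vehicle mice, 65.9 to 182.9 in female LLC1 mice, 3.41 to 8.62 in male vehicle mice and 69.3 to 186.7 in male LLC1 mice. Of 10 fibro-adipogenic progenitor markers, 2 fell and 1 rose in females, and 8 fell and 1 rose in males. Their sum was 2118 to 3699 CPM in female vehicle, 1543 to 2772 in female LLC1, 2627 to 3573 in male vehicle and 2089 to 2502 in male LLC1 mice. With edgeR, none of 11 macrophage markers and none of 3 epithelial markers tested passed in either sex. Of 10 endothelial markers, 2 rose in females, and 3 rose and 3 fell in males. Of 8 smooth muscle and pericyte markers, 4 fell in males and 0 in females, and of 6 tendon markers, 3 and 0, and no marker of these lists passed the interaction test. Of 6 satellite cell markers, 3 fell and 3 did not pass in each sex. Of 10 muscle fibre markers, females had 2 that fell and 8 that did not pass, and males 3 and 7. Of 5 platelet markers tested, 2 rose and 3 did not pass in each sex. Of 2 T cell and NK cell markers tested, 1 rose in males, where male LLC1 mouse 1-4 had a summed level of 14.2 CPM and the group's median was 0.57, against a median of 0.78 in male vehicle mice. These counts stand beside 9.92% of all genes called in females and 36.3% in males. In these bulk samples, fewer cells of a type and less RNA per cell cannot be told apart. The part of these cell types in the results on the TGF-beta genes was not tested.

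**Figure D1:**
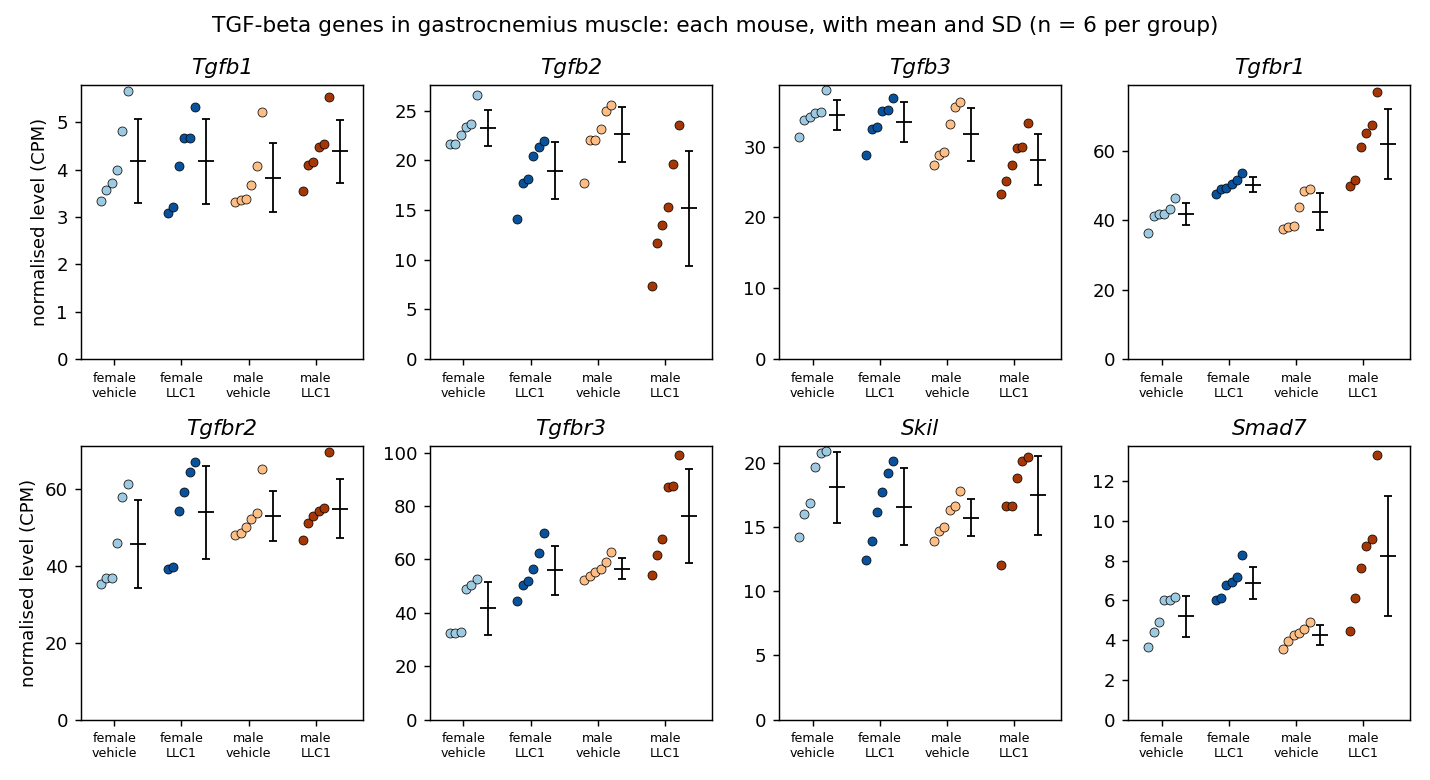
Level of each TGF-beta gene in CPM (vertical axis, from 0) in each of the 24 mice by group; points are mice in ascending order, and the cross with bars is the mean with the SD over 6 mice. Tgfbr1 separates LLC1 from vehicle mice in both sexes, while Tgfb2 and Smad7 spread most in male LLC1 mice.

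Levels of different genes were compared per kilobase of the gene length deposited with the counts, which need not be that of the transcripts present. On this scale the genes fell into a higher and a lower set. Over the 24 libraries, Tgfbr2 averaged 10.8 ± 2.05 CPM per kilobase (SD), Tgfb3 9.45 ± 1.13, Tgfbr3 8.80 ± 2.5 and Tgfbr1 7.51 ± 1.54. Tgfb2 followed at 3.45 ± 0.82, and Skil at 1.75 ± 0.27, Tgfb1 at 1.62 ± 0.30 and Smad7 at 1.36 ± 0.49 were lowest. Tgfbr1 was above Tgfb2 in 24 of 24 libraries, so the step between the sets held in every mouse. Within the sets neighbours overlapped: Tgfbr2 was above Tgfb3 in 18 of 24 libraries, Tgfb3 above Tgfbr3 in 15, and Skil above Tgfb1 in 16. Among the ligands, the level of Tgfb3 per kilobase was thus the highest and that of Tgfb1 the lowest. Tgfb1 and Smad7 rest on the fewest reads, with lowest raw counts of 96 and 101 in a library.

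The ligands came first. Tgfb2 (ENSMUSG00000039239, mm10 chr1:186622792-186705989, minus strand) encodes the TGF-beta 2 ligand. Its level was 21.6, 22.9 and 26.6 CPM (lowest, median and highest) in female vehicle mice and 14.1, 19.3 and 21.9 in female LLC1 mice. It was 17.8, 22.6 and 25.6 CPM in male vehicle mice and 7.32, 14.4 and 23.5 in male LLC1 mice. The groups overlapped in both sexes, although 5 of 6 female and 4 of 6 male LLC1 mice lay below every vehicle mouse of their sex. Tgfb2 fell in males, by 0.58 ± 0.18 (log2, SE; adjusted p = 0.0131), to 0.67 of the vehicle level. In females the log2 difference was -0.29 ± 0.17 (adjusted p = 0.299). Averaged over the sexes it fell by 0.44 ± 0.12 (adjusted p = 0.0071). The male call was lost in 2 of 20 alternative fits, among them the male groups fitted on their own (adjusted p = 0.0526), and the averaged call was lost in 1 of 31 (adjusted p = 0.125).

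Tgfb1 (ENSMUSG00000002603, chr7:25687002-25705077), the ligand gene expressed in many immune and stromal cells, and Tgfb3 (ENSMUSG00000021253, chr12:86056744-86079041, minus strand), the third isoform, passed the test in neither sex. Tgfb1 had means of 4.18 ± 0.89 CPM (SD, n = 6) in female vehicle, 4.17 ± 0.89 in female LLC1, 3.83 ± 0.73 in male vehicle and 4.39 ± 0.66 in male LLC1 mice. The log2 difference of Tgfb1 was -0.01 ± 0.15 (SE; adjusted p = 0.985) in females, where its sign changed with the scaling, and 0.20 ± 0.15 (adjusted p = 0.337) in males. Tgfb3 had means of 34.5 ± 2.15, 33.5 ± 2.84, 31.8 ± 3.75 and 28.2 ± 3.62 CPM in the groups in that order. Its log2 difference was -0.04 ± 0.09 (adjusted p = 0.817) in females and -0.17 ± 0.09 (adjusted p = 0.115) in males. Without male LLC1 mouse 2-5, which had the highest Tgfb3 of its group at 33.3 CPM, the male difference passed (adjusted p = 0.0413). In exon models of GENCODE M21, 124 bases of Tgfb2 overlap Gm29491 and 163 bases of Tgfb3 overlap Gm37804, both on the opposite strand, and the library kit does not mark strand. Gm29491 held 500 counts in all libraries together against 17400 for Tgfb2, and Gm37804 held 2695 against 28163 for Tgfb3. Tgfb3 also shares 257 bases with Gm48008 on the opposite strand, and Tgfbr3 shares 297 bases with Gm43422 on the same strand. Gm48008 and Gm43422 are not in the count table.

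Among the receptors, Tgfbr1 (ENSMUSG00000007613, chr4:47353222-47414931, plus strand) showed the steadiest difference. The level of this type I receptor gene was 36.2, 41.8 and 46.2 CPM in female vehicle mice and 47.4, 49.9 and 53.6 in female LLC1 mice. It was 37.4, 41.0 and 49.0 CPM in male vehicle mice and 49.7, 63.0 and 76.8 in male LLC1 mice. All 6 LLC1 mice of each sex lay above all 6 vehicle mice of that sex, and Tgfbr1 was the only 1 of the 8 genes without overlap. Of all genes tested, 6.55% did not overlap in females and 10.3% in males. Tgfbr1 rose in males by 0.55 ± 0.09 (log2, SE; adjusted p = 0.0002), or 1.46-fold, and this call held in all 20 alternative fits. In females the log2 difference was 0.27 ± 0.09, or 1.20-fold, and did not pass (adjusted p = 0.0655). It passed there in 3 of 20 alternative fits, among them DESeq2 (adjusted p = 0.0471) and a fit of the female groups alone (adjusted p = 0.0082). Averaged over the sexes, Tgfbr1 rose by 0.41 ± 0.07 (adjusted p = 4.54e-05).

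The promoters of Tgfb2 and Tgfbr1 are shown because these genes changed in opposite directions in males and have an entry in the RefSeq promoter table (build GRCm38.p6), as do Tgfb1 and Tgfbr2. Each is the 250 bases before the start site, 5′ to 3′ on the gene's strand, with capitals marking CAGAC or its reverse complement, a short motif bound by SMAD proteins. The Tgfb2 window is chr1:186705990-186706239 on the minus strand, and the Tgfbr1 window is chr4:47352972-47353221 on the plus strand.
Tgfb2: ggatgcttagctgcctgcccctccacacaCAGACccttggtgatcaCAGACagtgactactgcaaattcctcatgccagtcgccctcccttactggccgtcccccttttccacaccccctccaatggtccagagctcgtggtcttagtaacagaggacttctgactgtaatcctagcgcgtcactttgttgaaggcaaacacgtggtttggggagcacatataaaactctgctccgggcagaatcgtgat
Tgfbr1: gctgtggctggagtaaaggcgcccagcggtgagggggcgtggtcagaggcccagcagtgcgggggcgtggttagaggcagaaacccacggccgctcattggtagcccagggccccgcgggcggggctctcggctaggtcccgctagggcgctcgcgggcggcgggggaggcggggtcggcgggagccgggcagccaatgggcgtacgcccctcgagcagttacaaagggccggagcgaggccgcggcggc
The Tgfb2 window holds CAGAC at 2 places, starting 221 and 204 bases before the start site, and the Tgfbr1 window holds none. The Tgfbr2 window holds 1, at 160 bases, and the Tgfb1 window none. CAGAC is common, with a copy on either strand in 42.2% of 32817 promoters of this length. The longer SMAD box GTCTAGAC (0.168% of promoters), the AP-1 motif TGANTCA (6.75%) and the STAT motif TTCNNNGAA (7.01%) were in none of the windows of these 4 genes. The windows also differ in base composition, with a GC content of 53.6% for Tgfb2 and 74.8% for Tgfbr1. Tgfbr1 has another RefSeq start site at 47386216, whose window holds 1 CAGAC. These matches describe letters only.

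Tgfbr3 (ENSMUSG00000029287, chr5:107106570-107289629, minus strand) encodes betaglycan, the co-receptor that presents TGF-beta 2 to the type II receptor and can also be shed as a ligand trap. Its level was 32.4, 40.9 and 52.5 CPM in female vehicle mice and 44.6, 54.1 and 70.0 in female LLC1 mice. It was 52.3, 55.9 and 62.7 CPM in male vehicle mice and 54.0, 77.4 and 99.2 in male LLC1 mice. The groups overlapped in both sexes, with 3 of 6 female and 4 of 6 male LLC1 mice above every vehicle mouse. The log2 difference had nearly the same size in females, 0.43 ± 0.15 (SE; adjusted p = 0.0675), and in males, 0.43 ± 0.15 (adjusted p = 0.0260), and passed the test in males. Averaged over the sexes Tgfbr3 rose by 0.43 ± 0.10 (adjusted p = 0.0024), which held in all 31 alternative fits. The male call did not survive leaving out male LLC1 mouse 1-5 (adjusted p = 0.0671), 2-1 (0.0647) or 2-4 (0.0835), which had the highest Tgfbr3 at 87.3, 87.5 and 99.2 CPM. In females Tgfbr3 passed with DESeq2 (adjusted p = 0.0433) and without vehicle mouse 1-1 (0.0305) or 1-3 (0.0460).

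Tgfbr2 (ENSMUSG00000032440, chr9:116087698-116175363, minus strand), the ligand-binding type II receptor gene, passed the test in neither sex. Its level was 35.1, 41.3 and 61.2 CPM in female vehicle mice and 39.1, 56.7 and 67.0 in female LLC1 mice. It was 48.1, 51.0 and 65.2 CPM in male vehicle mice and 46.5, 53.5 and 69.4 in male LLC1 mice, so that male LLC1 and vehicle mice covered nearly the same range. The log2 difference was 0.24 ± 0.15 (SE; adjusted p = 0.327) in females and 0.05 ± 0.15 (adjusted p = 0.815) in males. The receptors that form the signalling pair, Tgfbr1 and Tgfbr2, thus had different outcomes of the test in males, although the difference between the 2 genes was not itself tested.

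The female vehicle mice fell apart by the first number in their titles, which the labels do not explain. The 3 mice with titles starting in 1 had 48.9 to 52.5 CPM of Tgfbr3, and the 3 starting in 2 had 32.4 to 32.9. Tgfbr2 followed the same split, with 45.8 to 61.2 CPM against 35.1 to 36.9, and so did Tgfb1, with 4.00 to 5.66 against 3.33 to 3.73. Macrophage markers moved with these genes, their sum being 315.8 to 447.7 CPM in the mice starting in 1 and 190.2 to 235.3 in those starting in 2. Fibro-adipogenic progenitor markers did too, at 2897 to 3699 against 2118 to 2512 CPM. So did neutrophil markers, at 7.447 to 9.282 against 4.346 to 4.695 CPM, and tendon markers, at 285.0 to 501.8 against 104.5 to 239.0 CPM. The sums of the other marker lists overlapped between these mice. In female LLC1 mice 2-4 and 2-5, Tgfbr2 was 39.1 and 39.6 CPM and the macrophage sum 179.0 and 230.3. In LLC1 mice 2-1 and 2-3 of the same set Tgfbr2 was 59.2 and 64.2 CPM and the sum 403.4 and 354.2. Fibro-adipogenic progenitor sums were 1543 and 1784 CPM in mice 2-4 and 2-5 against 2595 and 2376 in mice 2-1 and 2-3. In that order, tendon sums were 126.6 and 68.15 against 766.2 and 338.1, and neutrophil sums 65.9 and 71.87 against 100.2 and 104.8. Endothelial, smooth muscle and pericyte, and satellite cell sums were also lower in mice 2-4 and 2-5, and muscle fibre sums higher. The log2 ratio of mean Tgfbr3 in LLC1 over vehicle females was 0.10 within titles starting in 1 and 0.80 within those starting in 2. The same ratio in males was 0.36 and 0.41. For Tgfbr1 the ratio was 0.21 and 0.33 in females and 0.57 and 0.57 in males, so it was above 0 within each set. For Tgfb2 it was -0.23 and -0.32 in females and -1.08 and -0.22 in males, and for Smad7 0.54 and 0.34 in females and 1.22 and 0.75 in males. The part of the title number and of these cells in the results was not tested.

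**Figure D2:**
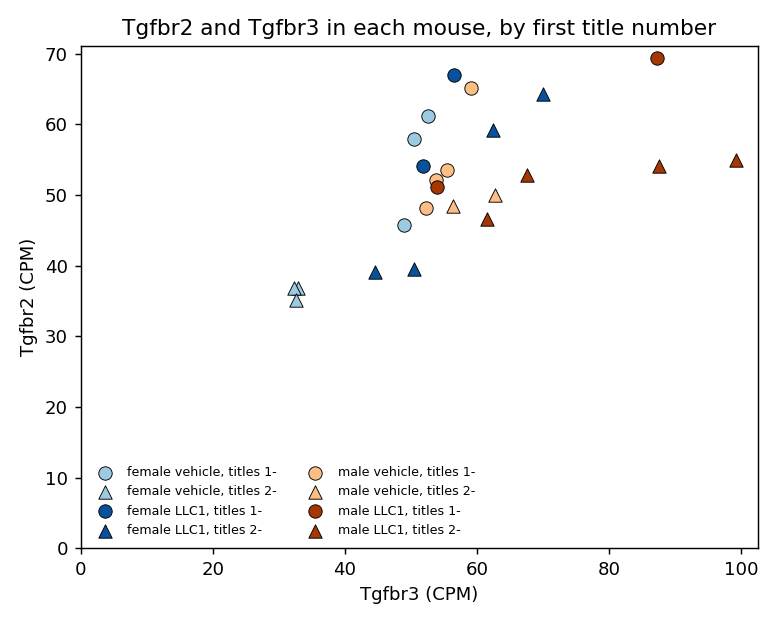
Tgfbr2 against Tgfbr3 level in CPM (both axes linear, from 0) in each mouse, coloured by group, with circles for titles starting in 1 and triangles for titles starting in 2. The 3 female vehicle triangles sit together at 32.4 to 32.9 CPM of Tgfbr3, below all other mice.

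Of the target genes, Smad7 (ENSMUSG00000025880, chr18:75367529-75395935, plus strand) had the largest difference of the 8 genes in males. Smad7 encodes the inhibitory SMAD, which binds the activated type I receptor and recruits ubiquitin ligases to it, and it is induced by TGF-beta itself and by other signals. Its level was 3.68, 5.46 and 6.18 CPM in female vehicle mice and 6.003, 6.86 and 8.27 in female LLC1 mice. It was 3.54, 4.31 and 4.93 CPM in male vehicle mice and 4.47, 8.17 and 13.3 in male LLC1 mice. Smad7 was above every vehicle mouse in 5 of 6 male and 4 of 6 female LLC1 mice, and above the vehicle mean in all LLC1 mice of both sexes. Smad7 rose in males by 0.95 ± 0.18 (log2, SE; adjusted p = 0.0004), or 1.93-fold, and this call held in all 20 alternative fits. In females the log2 difference was 0.40 ± 0.18, or 1.32-fold (adjusted p = 0.151). Averaged over the sexes, Smad7 rose by 0.67 ± 0.13 (adjusted p = 0.0002).

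Skil (ENSMUSG00000027660, chr3:31095058-31122577, plus strand) encodes SnoN, a repressor that holds SMAD complexes inactive and whose gene is induced by TGF-beta as feedback. Its level was 14.2, 18.3 and 20.9 CPM in female vehicle, 12.4, 16.9 and 20.1 in female LLC1, 13.9, 15.7 and 17.7 in male vehicle and 12.1, 17.7 and 20.4 in male LLC1 mice. The groups overlapped in both sexes. The log2 difference was -0.12 ± 0.13 (SE; adjusted p = 0.580) in females and 0.15 ± 0.13 (adjusted p = 0.363) in males. Of the pair of target genes, Smad7 thus passed the test in males and Skil did not.

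Counted over the 8 genes, 0 were called in females, where 9.92% of all genes tested were called (4.97% higher and 4.95% lower). With edgeR, 3 of the 8 had an unadjusted p under 0.05 in females (Tgfbr1, Tgfbr3 and Smad7). DESeq2 called 2 in females, limma-voom 0 and limma-voom with sample weights 4. In males 3 genes were called higher and 1 lower, against 36.3% of all genes tested (19.5% higher and 16.8% lower). So few genes cannot set the count of 4 of 8 in males apart from that share. The median log2 difference of the 8 genes was 0.12 in females and 0.17 in males, against -0.01 and 0.01 over all genes tested. Averaged over the sexes 4 of the 8 were called, against 41.5% of all genes.

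**Figure D3:**
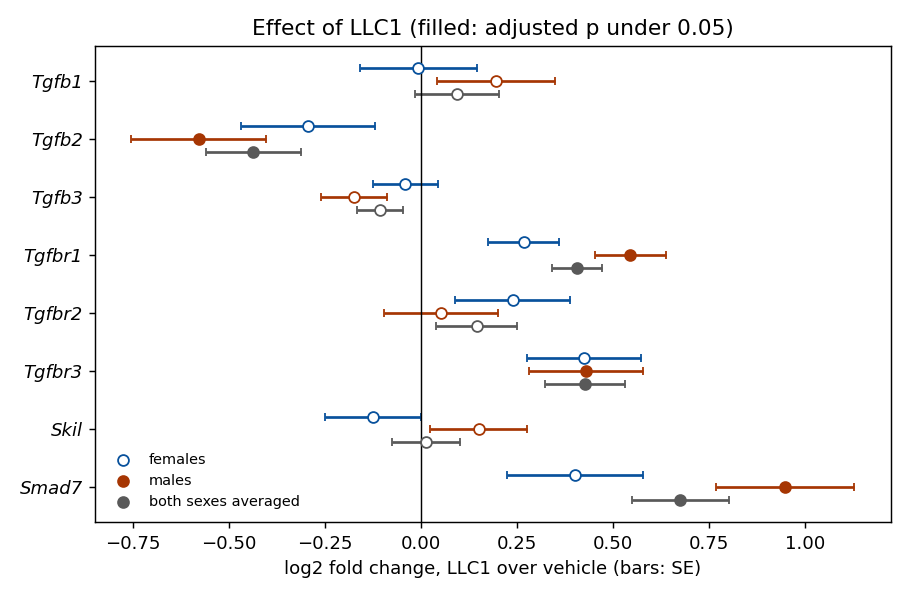
Log2 fold change of LLC1 over vehicle (horizontal axis) for each TGF-beta gene in each sex and as the average of both; bars are the SE and filled points have an adjusted p under 0.05. Tgfbr1, Tgfbr3 and Smad7 lie to the right and Tgfb2 to the left of 0 in each comparison.

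Whether the effect of LLC1 depended on sex was tested by the interaction. With edgeR, 0 of the 8 genes and 0.0% of all genes were called, while 2191 genes had an unadjusted p under 0.05. DESeq2 called 42 genes, limma-voom 0 and limma-voom with sample weights 2, none of them a member. The male effect exceeded the female effect of Smad7 by 0.55 ± 0.25 (log2, SE; adjusted p = 0.384) and that of Tgfbr1 by 0.28 ± 0.13 (adjusted p = 0.391). These were the members with an unadjusted p under 0.05, and neither passed after adjustment. For Tgfbr3 the difference between the effects was 0.00 ± 0.21 (adjusted p = 0.997), and for Tgfb2 it was -0.28 ± 0.25 (adjusted p = 0.639).

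Between the sexes, 0 of the 8 genes were called in vehicle mice, where 6.23% of all genes were. Tgfbr3 came nearest, with a log2 difference of male over female of 0.44 ± 0.15 (SE; adjusted p = 0.0765) and an unadjusted p under 0.05 in edgeR. DESeq2 and limma-voom with sample weights each called 1 member there, and limma-voom 0. Without female vehicle mouse 1-1, edgeR called 1. In LLC1 mice 3 of the 8 were called, against 15.7% of all genes. Tgfbr1 was higher in males by 0.30 ± 0.09 (adjusted p = 0.0278), Tgfbr3 was higher by 0.45 ± 0.15 (adjusted p = 0.0411) and Tgfb3 was lower, with a log2 difference of -0.25 ± 0.09 (adjusted p = 0.0458). When the LLC1 groups were fitted alone, 0 of these calls were left, as also without female LLC1 mouse 1-4 or 1-5 or male LLC1 mouse 1-5, 2-1 or 2-4. Without female LLC1 mouse 2-1 or 2-5, 1 was left.

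Male LLC1 mice differed from one another more than the other groups did in Tgfb2, Tgfbr1, Tgfbr3 and Smad7. The SD of Tgfbr1 was 10.2 CPM in male LLC1 mice and 2.18 to 5.30 in the other groups, and that of Smad7 was 3.02 against 0.49 to 1.03. Male LLC1 mouse 1-5 had the highest Tgfbr1 (76.8 CPM), the highest Smad7 (13.3), the highest Tgfbr2 (69.4) and the lowest Tgfb2 (7.32) of its group. Mouse 2-2 stood at the other end, with the lowest Tgfbr1 (49.7 CPM), Smad7 (4.47), Tgfbr2 (46.5), Skil (12.1) and Tgfb1 (3.55) and the highest Tgfb2 (23.5). The difference in spread was not tested.

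**Figure D4:**
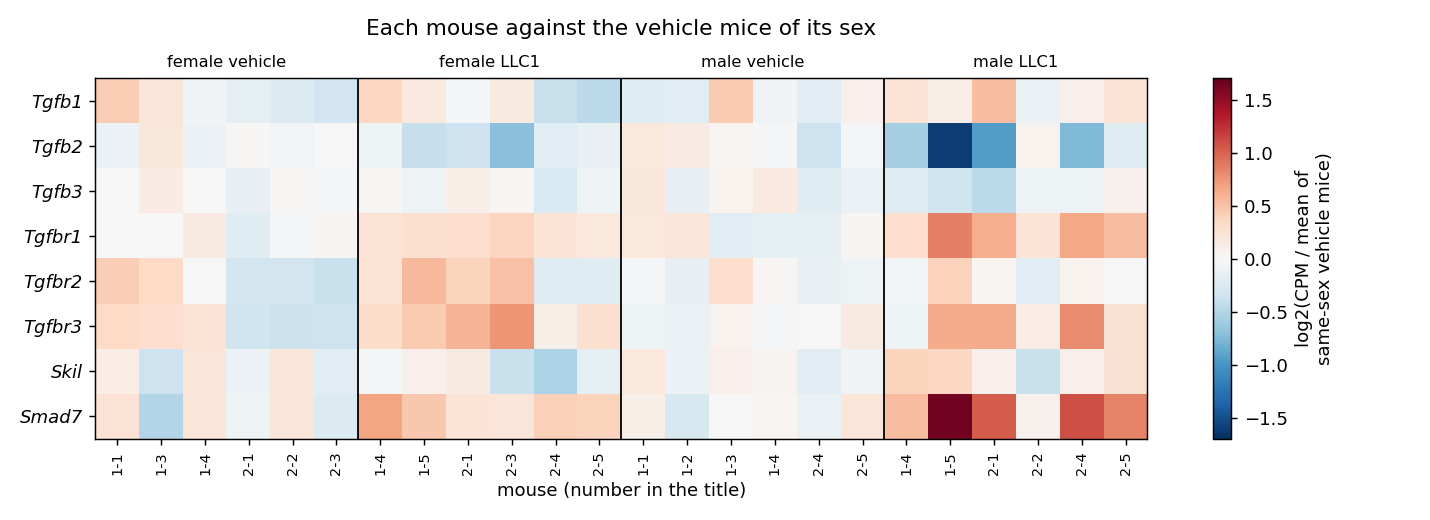
Log2 ratio of each gene's CPM in each mouse (columns, numbered as in the titles and grouped) to the mean of the vehicle mice of that sex; red is higher and blue lower. In male LLC1 mice 1-5, 2-1 and 2-4, low Tgfb2 goes with high Tgfbr1, Tgfbr3 and Smad7, while mouse 2-2 lies near the vehicle mean in Tgfb2 and Smad7. Male LLC1 mouse 1-4 has low Tgfb2 (-0.564) with Tgfbr3 at -0.0678, and mouse 2-5 has high Smad7 (0.838) with Tgfb2 at -0.206.

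Genes whose level over the 24 libraries was most like that of a called member were named by Pearson's r of log2(CPM + 0.5). The libraries share their groups and lanes, and r is given as a description. For Tgfb2 they were Scrn2 (r = 0.942), St8sia5 (0.936) and Pradc1 (0.931), with r of 0.907, 0.880 and 0.877 after the group means were removed. For Tgfbr1 they were Herpud2 (0.957), the nucleolar protein gene Nop58 (0.944) and the RNA helicase gene Ddx21 (0.943), with 0.864, 0.838 and 0.849 after removal. For Tgfbr3 they were Prrc2c (0.946), Lmtk2 (0.946) and Smg1 (0.944), a kinase of nonsense-mediated decay, with 0.873, 0.867 and 0.872. For Smad7 they were the ubiquitin ligase gene Siah1a (0.901), Kti12 (0.896) and the phosphate transporter gene Slc20a1 (0.896), with 0.768, 0.862 and 0.823.

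The rest of the pathway was described through 62 other genes in 5 lists, all of which passed the filter. In females 3 rose and 3 fell, and in males 14 rose and 13 fell, with medians of 0.05 and -0.04 on the log2 scale, close to those of all genes. In the interaction 0 of the 62 were called with edgeR, DESeq2 or limma-voom, and 8 had an unadjusted p under 0.05 with edgeR. The female counts rest on single mice. The 3 that fell became 0 without female LLC1 mouse 1-4, 2-3 or 2-4 or vehicle mouse 1-1, became 1 without LLC1 mouse 1-5 or vehicle mouse 1-3 or 2-1, and became 6 without LLC1 mouse 2-1. The 3 that rose became 1 without LLC1 mouse 2-3 or 2-4 and 5 without LLC1 mouse 2-5 or vehicle mouse 1-1. The 14 that rose in males became 9 without male LLC1 mouse 2-1. Both counts are near the shares of all genes called, and nothing particular to the pathway is read from them.

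Latency and activation held most of the genes that fell. Of its 14 genes, 3 fell and 0 rose in females, and 7 fell and 3 rose in males. Of all genes tested, 4.95% fell and 4.97% rose in females, and 16.8% fell and 19.5% rose in males. These shares stand beside the counts of each list below as well, and no list was tested as a set. Fbn1, which encodes fibrillin, the microfibril protein that anchors latent complexes, was 157.7 ± 70.6 CPM (SD, n = 6) in female vehicle and 68.2 ± 29.9 in female LLC1 mice. Fbn1 fell by 1.21 ± 0.34 (log2, SE; adjusted p = 0.0260) in females and by 1.42 ± 0.34 (adjusted p = 0.0030) in males. Itgb6, an integrin subunit gene whose product activates latent ligand, fell by 1.04 ± 0.31 (adjusted p = 0.0352) in females and by 1.56 ± 0.31 (adjusted p = 0.0008) in males, from 31.2 ± 4.06 to 10.6 ± 7.96 CPM. Ltbp4, a latent TGF-beta binding protein gene, fell by 0.50 ± 0.15 (adjusted p = 0.0383) in females and by 0.67 ± 0.15 (adjusted p = 0.0018) in males. In males Itgav, the partner subunit of Itgb6, fell by 0.32 ± 0.07 (adjusted p = 0.0012). Furin, the protease gene whose product cleaves the precursor, rose in males by 0.55 ± 0.11 (adjusted p = 0.0007), from 42.8 ± 2.58 to 62.6 ± 10.7 CPM. Fibrillin and the latent binding proteins are made by matrix-forming cells, whose marker sums are given above. The part of these cells in the results on this list was not tested.

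Signal transducers included Smad4, the common partner of the receptor-activated SMADs, and Crebbp, a histone acetyltransferase recruited by SMADs. Of 10 genes, 2 rose and 0 fell in females, and 3 rose and 2 fell in males. Smad4 rose by 0.29 ± 0.09 (adjusted p = 0.0391) in females and 0.39 ± 0.09 (adjusted p = 0.0019) in males. Crebbp rose by 0.27 ± 0.08 (adjusted p = 0.0276) and 0.56 ± 0.08 (adjusted p = 2.42e-05). Smad3, which carries the receptor's signal to DNA, was 83.8, 96.7 and 111.6 CPM in male vehicle mice and 25.8, 59.4 and 93.1 in male LLC1 mice, and fell by 0.76 ± 0.23 (adjusted p = 0.0119). Its log2 difference in females was 0.02 ± 0.22 (adjusted p = 0.978), and the difference between the sexes had an adjusted p of 0.346. Among 12 co-receptors and receptor regulators, 0 passed in females with edgeR (2 had an unadjusted p under 0.05), and 1 rose and 1 fell in males. These were Tgfbrap1, whose product binds the receptors (0.26 ± 0.09, adjusted p = 0.0361), and Bambi, the gene of a pseudoreceptor that blocks signalling, which fell by 0.63 ± 0.19 (adjusted p = 0.0112).

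Inhibitors and turnover genes numbered 11, of which 0 passed in females with edgeR (1 had an unadjusted p under 0.05) and 3 rose in males. Tgif1, a homeobox repressor gene, was 3.80, 4.52 and 5.50 CPM in male vehicle mice and 8.39, 19.1 and 34.5 in male LLC1 mice, with no overlap. In males 10.3% of all genes tested had no overlap. Tgif1 rose by 2.15 ± 0.30 (log2, SE; adjusted p = 2.58e-05) in males. In females its log2 difference was 0.71 ± 0.29 (adjusted p = 0.125), and the interaction had an adjusted p of 0.243. Rnf111, whose product Arkadia degrades SnoN and SMAD7, rose by 0.44 ± 0.09 (adjusted p = 0.0008). Pmepa1, a membrane inhibitor gene that TGF-beta induces, rose by 0.49 ± 0.18 (adjusted p = 0.0366).

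Transcriptional targets did not move in 1 direction. Of 15 genes known to respond to TGF-beta in many cell types, 1 rose and 0 fell in females, and 4 rose and 3 fell in males. Klf10, an early response gene also induced by glucocorticoids, was 16.7, 19.5 and 28.3 CPM in female vehicle and 29.5, 64.1 and 69.5 in female LLC1 mice, with no overlap. In females 6.55% of all genes tested had no overlap. Klf10 rose by 1.41 ± 0.30 (adjusted p = 0.0046) in females and 1.73 ± 0.30 (adjusted p = 0.0003) in males. Id1, which BMP ligands also induce, rose in males by 1.00 ± 0.31 (adjusted p = 0.0144). Snai2, a mesenchymal repressor gene, fell in males by 0.74 ± 0.19 (adjusted p = 0.0036), at levels near 1 CPM.

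**Figure D5:**
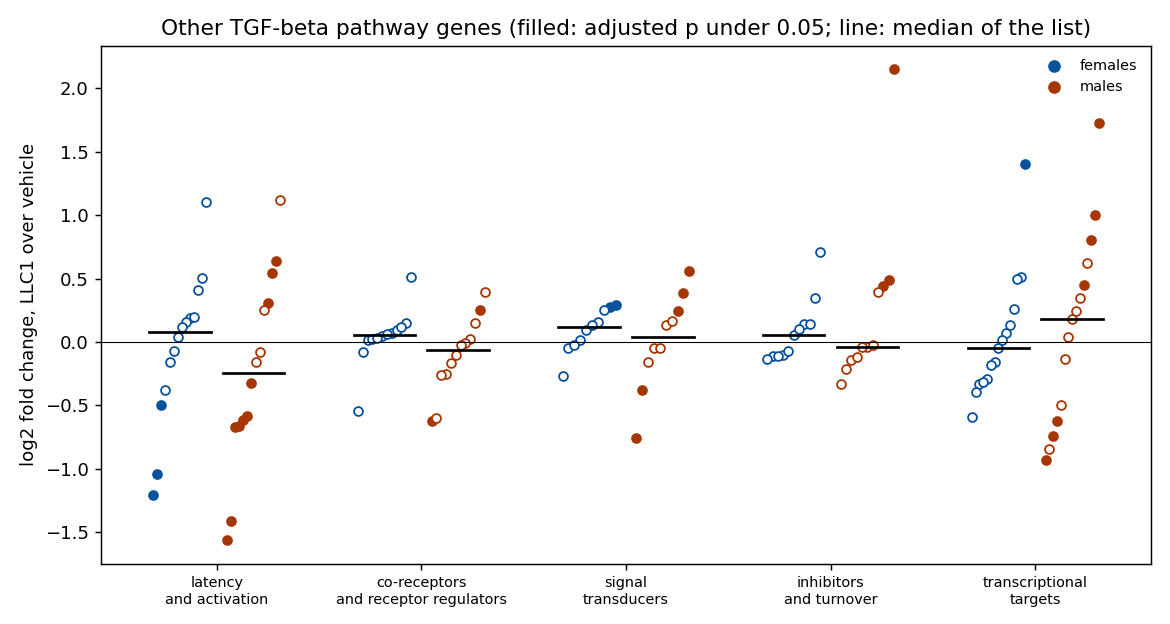
Log2 fold change of LLC1 over vehicle (vertical axis) for the 62 other pathway genes in 5 lists, in females and in males; filled points have an adjusted p under 0.05 and black lines are list medians. Tgif1 at 2.15 and Klf10 at 1.73 in males lie highest, and Itgb6 at -1.56 in males lies lowest.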

How the data were processed

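Gastrocnemius poly(A) RNA of 24 mice was sequenced from unstranded TruSeq libraries, per the labels. The deposited values are whole-number read counts per gene, not normalized. The submitters' processing notes name CASAVA, STAR, featureCounts and mm10; the sources used here give neither versions nor options, nor how reads shared by several genes were counted. Gene lengths in bases are those of the deposited table.

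Groups followed the labels. The titles give each library of a group its own number, which the labels do not explain and which is read here as a mouse. Nothing else says that the libraries are separate animals, so the p-values measure only library-to-library spread, which may be technical. Counts were fitted with edgeR 4.0.16 (R 4.3.3): filterByExpr (17773 of 43346 genes), TMM factors (0.924 to 1.10), 4 group means, robust quasi-likelihood F-test with 20 residual degrees of freedom, Benjamini-Hochberg adjustment over all genes tested, and calls at an adjusted p under 0.05. On simulated counts for the female comparison over the 17773 genes, with 200 genes changed 2-fold, 84.5% were recovered and 3.98% of calls were false. No member differed that much in females, where the largest difference was 1.34-fold (Tgfbr3). Recovery of changes of that size was not measured.

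Alternatives were DESeq2 size factors (RLE) in edgeR, DESeq2 1.42.0, limma-voom (limma 3.58.1) without and with sample weights, no filter, only the groups compared, each library left out, and the title numbers as a block.

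The 8 genes, the pathway and marker lists, and the tests were chosen with earlier results of these data known. Of each pathway list, the text names genes called in the interaction and the 3 with the smallest p in each sex among those called. For members called with LLC1, it names the 3 genes with the highest r, leaving out unnamed genes and overlapping genes. Marker genes are given as sums. In SD and mean values n is 6 mice per group.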

Additional observations from a re-analysis of the deposited data

Results flagged for a closer look

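Tgfbr2 had a mouse far from the rest in each male group. In male vehicle mice, mouse 1-3 had 65.2 CPM of Tgfbr2, with the next mouse at 53.6. In male LLC1 mice, mouse 1-5 had 69.4 CPM, with the next at 54.9. The gap made up 0.68 and 0.633 of the group's range, past Dixon's limit for 6 values. This was checked for 8 genes in 4 groups, and chance alone passes the limit in about 1 in 20 groups. Mouse 1-3 also had the highest macrophage (408.2 CPM), endothelial (698.3), tendon (675.2) and fibro-adipogenic progenitor sums (3573) of the male vehicle mice. Its satellite cell (26.25), platelet (14.15) and neutrophil sums (8.622) were highest too, and its muscle fibre sum lowest (175700). Mouse 1-5 had the lowest macrophage (305.5 CPM), muscle fibre (141800) and smooth muscle and pericyte sums (701.3) of the male LLC1 mice. Its platelet (9.251) and satellite cell sums (13.68) were lowest too, and its epithelial sum highest (2.533). The other sums lay within the range of their groups. The part of these cells was not tested.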

How the results depend on the processing

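Male Tgfbr1 and Smad7 kept their calls under all 20 alternatives, Tgfb2 in 18 and Tgfbr3 in 16. The number of members called in females, 0 as reported, was 2 with DESeq2, 4 with sample weights, 2 with only the groups compared and 0 to 1 with 1 library left out. Between the sexes in vehicle mice it was 0 as reported, 1 with DESeq2, 1 with sample weights, 1 with only the groups compared and 0 to 1 with 1 library left out. In LLC1 mice it was 3 as reported, 1 without the filter, 0 with only the groups compared and 0 to 4 with 1 library left out. Pathway genes called higher in females, 3 as reported, numbered 5 with DESeq2, 10 with sample weights, 7 with only the groups compared and 1 to 5 with 1 library left out. Those called lower, 3 as reported, numbered 5 with sample weights, 0 without the filter and 0 to 6 with 1 library left out. In males, 14 were called higher as reported and 9 to 16 with 1 library left out. The cause was not tested.

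Some small log2 differences changed sign. Tgfb1 in females was 0.0012 with RLE, 0.00253 with DESeq2, 0.133 with sample weights, 0.00344 without the filter, 9.21e-05 with only the groups compared and -0.0684 to 0.122 with 1 library left out. Tgfb3 in females ran from -0.0673 to 0.00712 and Tgfbr2 in males from -0.0282 to 0.112 with 1 library left out. The interaction of Tgfbr3 was -0.0481 with limma-voom, -0.0547 with sample weights, -0.0127 without the filter and -0.0993 to 0.0863 with 1 library left out.

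The full title numbers did not pair the libraries: same-numbered pairs had deviations correlated at -0.231 to 0.0663 over 6 pairs, against -0.425 to 0.445 over the other 66. Some female pairs that share only the first number were more alike. LLC1 mouse 1-4 with vehicle mouse 1-1 had 0.403, and 2-5 with 2-3 had 0.445, but 2-1 with 2-3 had -0.163. LLC1 mouse 2-5 with vehicle mouse 1-1, of another first number, had -0.425. Male pairs with the same first number ran from -0.0711 to 0.207. With the full number as a replicate block, the members called were 0 in females, 2 in males and 1 between the sexes in LLC1 mice, and the pathway genes called were 0 higher and 0 lower in females and 8 lower in males. Tgfb2 then had an adjusted p of 0.0683 in males and 0.125 averaged over the sexes. With the first number as the block they were 1 in females and 0 between the sexes in LLC1 mice, with 5 pathway genes higher in females. The log2 difference in females under the block was 0.118 (full number) and 0.0715 (first number) for Tgfb1 and 0.0611 (full number) for Tgfb3, and the interaction of Tgfbr3 was -0.129 (first number).

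Over all genes, 1763 were called in females as reported, 4006 with sample weights, 480 with the full-number block, 919 without LLC1 mouse 2-3 and 1100 without vehicle mouse 2-1. In males 6449 were called and 3607 with that block. Averaged over the sexes 7370 were called and 3526 with that block. In the interaction 0 were called, 168 with the first-number block (119 higher and 49 lower), 42 with DESeq2, 2 with sample weights and 0 to 7 with 1 library left out. Between the sexes in vehicle mice 1107 were called, 2437 with sample weights, 269 with the full-number and 518 with the first-number block, 731 without female mouse 2-2 and 659 without male mouse 2-5. In LLC1 mice 2787 were called, 966 with only the groups compared, 1815 without female mouse 1-4 and 1638, 1749 and 1606 without male mouse 1-5, 2-1 and 2-4. The lowest counts per library were 96 for Tgfb1 and 101 for Smad7.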
